A study of Mus musculus with 3 samples.

Results

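The cyclins and cyclin-dependent kinase (CDK) inhibitors described here are 10 genes, chosen by name: the D cyclins Ccnd1, Ccnd2 and Ccnd3, the E cyclins Ccne1 and Ccne2, the A cyclin Ccna2, the B cyclins Ccnb1 and Ccnb2, and the inhibitors Cdkn1b and Cdkn2a. They are 10 of the 24421 genes counted by RNA-Seq in undifferentiated mouse embryonic stem (ES) cells from the EL16.7 line, which is female (strain F2, 129S1/CastEiJx 129S1). The study asked how the nuclear pore protein NUP153 bears on gene expression, and compared wild type cells given a scramble shRNA (control) with cells given one of 2 shRNAs against NUP153 (NUP153 KD-1 and NUP153 KD-2). In all 3 conditions the shRNA came from a lentivirus, the cells grew with LIF on γ-irradiated fibroblasts of DR4 mice, and they were selected for 2 days with 2 μg/ml puromycin before collection. Each condition is 1 library of transduced cells, so no difference between conditions has a replicate check, and the effects of an shRNA and of its dish cannot be told apart.

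Cyclins are the regulatory subunits of the CDKs, and each kind works at its own stage of the cell cycle. D cyclins join CDK4 and CDK6 and link growth signals to the phosphorylation of the retinoblastoma protein, E cyclins join CDK2 at entry into S phase, cyclin A2 acts through S phase and G2, and B cyclins join CDK1 to drive mitosis. Cdkn1b encodes p27Kip1, which binds cyclin and CDK complexes, and Cdkn2a encodes p16INK4a, an inhibitor of CDK4 and CDK6, and p19ARF, which stabilises p53. Mouse ES cells are known for a short G1 phase, abundant cyclins E and A and a low level of D cyclins, whereas cultured embryonic fibroblasts are known to use D cyclins and to accumulate products of the Cdkn2a locus.

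Reads on genes numbered 72344726 in control, 85258834 with KD-1 and 69839336 with KD-2. Nup153 itself, the target of both shRNAs, had 27870 reads in control, 16451 with KD-1 and 11126 with KD-2, which after scaling of the libraries by their upper quartiles is a log2 fold change of -0.99 with KD-1 and -1.43 with KD-2. A gene was called higher or lower where its fold change was above 1.5 (0.58 on the log2 scale) in either direction, among the 16670 genes whose mean over the libraries reached 10 reads, and all 10 cyclins and inhibitors passed that minimum. By this rule 14.2% of genes were called in KD-1 against control (8.63% higher, 5.62% lower), 27.3% in KD-2 against control (17.1% higher, 10.2% lower) and 30.1% in KD-1 against KD-2 (13.9% higher, 16.1% lower). The direction of these calls over all genes moved with the scaling: 62.6% of the calls in KD-2 were higher, against 82.8% with library totals, and 46.3% of those in KD-1 against KD-2 were higher, against 32.9% with DESeq2's size factors and 25.9% with library totals. Among genes with a mean of 100 reads or more, as all 10 cyclins and inhibitors have, 8.07% were called in KD-1, of which 46.6% were higher, against 60.5% at the lower minimum. At that depth 22.4% were called in KD-2 and 26% in KD-1 against KD-2. The median log2 fold change over all genes was 0.02 in KD-1, -0.02 in KD-2 and 0.12 in KD-1 against KD-2, and with library totals that of KD-2 was 0.14.

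Markers of ES cells and of fibroblasts, the cell type of the feeder layer, were checked in each library. Of the 10 ES cell markers, 1 was called higher in KD-1 (Utf1, 0.69), and in KD-2 Utf1 was higher (1.17) while Zfp42 (-0.70) and Tdgf1 (-0.61) were lower, calls that Tdgf1 lost with TMM (-0.56) and both lost with library totals (-0.54 and -0.45). Their summed scaled reads were 369739 in control, 406832 with KD-1 and 274688 with KD-2. The 10 fibroblast markers, genes known from fibroblasts such as the feeder cells, among them collagens, lumican and periostin, summed to 115854 scaled reads in control, 64745 with KD-1 and 202922 with KD-2, and none of them was at 0 reads in any library. Which cells these reads came from was not measured. In KD-1, 6 of the 10 were called lower (Postn -2.01, Lum -1.44, Col1a2 -1.35, Col3a1 -1.33, Pdgfrb -0.83, Dcn -0.64), and the highest was Col6a3 at 0.08. In KD-2, 8 of the 10 were called higher, from Col6a3 at 0.59 to Pdgfrb at 1.08, and Thy1 (0.37) and Fbn1 (0.42) were higher without passing 1.5-fold. Because these are bulk samples, fewer cells of a type and less RNA per cell cannot be told apart.

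In control mouse ES cells Ccnb1 stood at the top of the 10 genes and Cdkn1b at the bottom. As RPKM, reads scaled by kilobases of exon and by the library's reads on genes, the control levels were 194.5 for Ccnb1, 71.4 for Ccna2, 60.3 for Ccnd1, 59.8 for Ccnb2, 51.0 for Ccne1, 19.5 for Cdkn2a, 14.4 for Ccnd2, 8.12 for Ccne2, 5.72 for Ccnd3 and 3.23 for Cdkn1b. Ccnd1 and Ccnb2 were thus nearly level, and with 1 library per condition the order of such neighbours has no spread to be read against. Ccnb1 was first and Cdkn1b last in all 3 libraries. Ccnd1 was at 37.5 RPKM with KD-1, below Ccne1 (50.6 RPKM), and at 90.3 RPKM with KD-2, above all others but Ccnb1. Cdkn2a, at 46.0 RPKM with KD-2, passed Ccne1 (40.6 RPKM) in that library only.

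**Figure D1:**
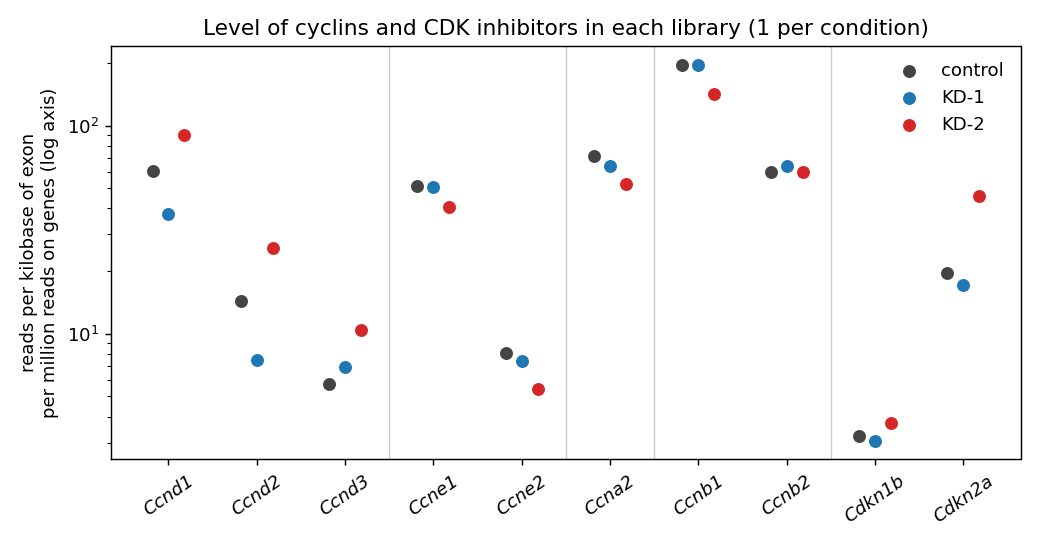
Level of each cyclin and CDK inhibitor in control (grey), NUP153 KD-1 (blue) and NUP153 KD-2 (red) mouse ES cells, in RPKM on a log axis, with 1 point per library and no error bars because each condition has 1 library. Ccnb1 is at 194.5, 195.9 and 141.2 and Cdkn1b at 3.23, 3.07 and 3.74, while Ccnd1, Ccnd2 and Cdkn2a spread the most between KD-1 and KD-2.

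Of the 10 genes, 2 were called in KD-1, both D cyclins and both lower, beside 14.2% of all genes called in either direction and 5.62% called lower. In KD-2, 6 of the 10 were called, Ccnd2, Ccnd3 and Cdkn2a as higher and Ccne2, Ccna2 and Ccnb1 as lower, beside 27.3% of all genes. With TMM, DESeq2's size factors or library totals Ccna2 and Ccnb1 were not called, which left 4 of the 10. In KD-1 against KD-2, 5 of the 10 were called, Ccnd1, Ccnd2 and Cdkn2a as lower in KD-1 and Ccne2 and Ccnb1 as higher, beside 30.1% of all genes. Both higher calls were lost with TMM, DESeq2's size factors and library totals, which left 3 of the 10. The median over the 10 genes was -0.10 with KD-1 and -0.05 with KD-2, against 0.02 and -0.02 over all genes. Intervals given below are exact 95% intervals of the ratio of reads and cover counting error only.

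**Figure D2:**
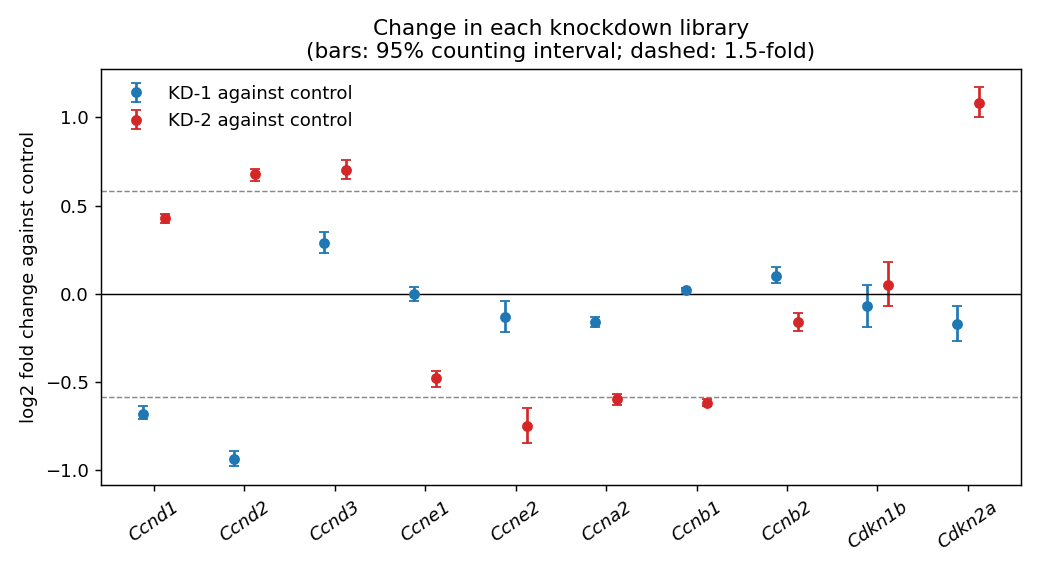
Log2 fold change of each cyclin and CDK inhibitor against the shared control library in NUP153 KD-1 (blue) and NUP153 KD-2 (red). Vertical bars are 95% counting intervals, which leave out differences between cultures, and dashed lines mark 1.5-fold: Ccnd1 and Ccnd2 lie below the lower line in KD-1, and Cdkn2a in KD-2 is the highest point at 1.08.

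Among the D cyclins, Ccnd1 and Ccnd2 were lower than control in KD-1 but higher than control in KD-2. Ccnd1, on chromosome 7 (chr7:144929931-144939925, minus strand, GRCm38), had 22189 scaled reads in control, 13897 with KD-1 and 29813 with KD-2. Its log2 fold change was -0.68 (interval -0.71 to -0.64) with KD-1 and 0.43 (0.40 to 0.45) with KD-2, of which only the first passed 1.5-fold. The libraries of KD-1 and KD-2 thus lay on opposite sides of the control, 1.10 apart on the log2 scale.

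Ccnd2 (chr6:127125162-127152193, minus strand) showed the same order with larger differences. It had 10623 scaled reads in control, 5553 with KD-1 and 17001 with KD-2, which is -0.94 (-0.98 to -0.89) with KD-1 and 0.68 (0.64 to 0.71) with KD-2. KD-1 was 1.61 below KD-2 on the log2 scale, or 0.327 times its level. Both calls held under every scaling tried. An antisense gene on its exons, 9330179D12Rik, had at most 8 reads in any library.

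Ccnd3 (chr17:47505051-47599691, plus strand) differed from the other two in KD-1. It had 3925 scaled reads in control, 4797 with KD-1 and 6398 with KD-2, so that control was the lowest of the 3 libraries. Its log2 fold change was 0.29 (0.23 to 0.35) in KD-1, under 1.5-fold, and 0.70 (0.65 to 0.76) in KD-2. Exons of Ccnd3 overlap Bysl on the other strand, a gene with 5146, 6114 and 5430 reads in control, KD-1 and KD-2, and since the strand counted was not given in the sources used here, reads of the overlap cannot be assigned.

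The D cyclins also differed in their share of the family, which does not depend on the scaling between libraries. Ccnd3 made up 10.7% of the D cyclin reads in control (exact 95% interval 10.4 to 11.0), 19.8% with KD-1 (19.3 to 20.3) and 12.0% with KD-2 (11.7 to 12.3). Ccnd2 made up 28.9% in control, 22.9% with KD-1 and 31.9% with KD-2, and Ccnd1 60.4%, 57.3% and 56.0%. Ccnd1 was thus the main D cyclin in every library, and per kilobase of exon its share was 74.9%, 72.2% and 71.4%. The read ratio of Ccnd1 to Cdk4, its kinase partner, was 1.04 in control, 0.661 with KD-1 and 1.60 with KD-2, while Cdk4 itself was at -0.02 with KD-1 and -0.19 with KD-2. Exons of Cdk4 overlap Tspan31 on the other strand, which had 5432 reads in control, 5228 with KD-1 and 5396 with KD-2.

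**Figure D3:**
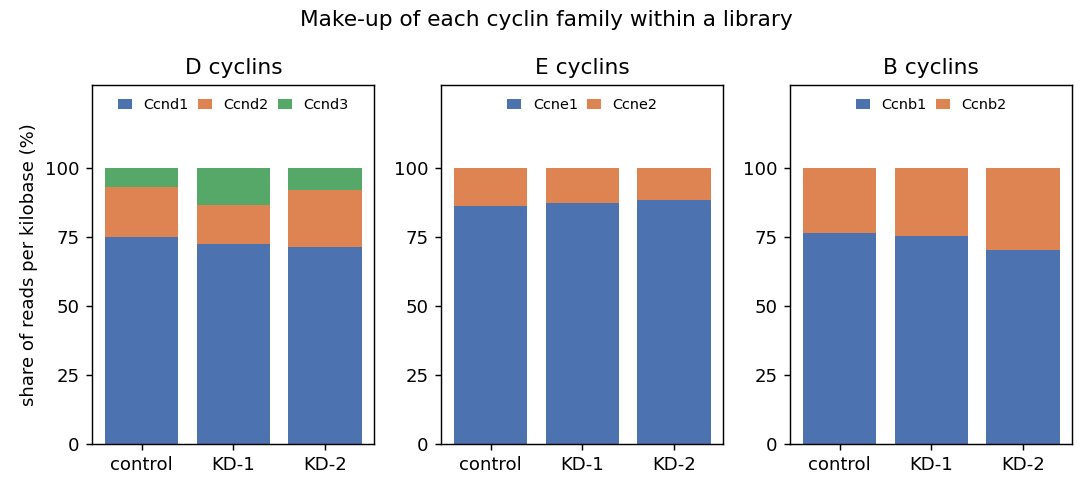
Make-up of the D, E and B cyclins within each library, as the share of reads per kilobase of exon that each member takes of its family, in percent, with control, KD-1 and KD-2 as bars. The Ccnd3 part is 7.11% in control, 13.4% with KD-1 and 8.22% with KD-2, the Ccne1 part stays between 86.3% and 88.3%, and the Ccnb2 part is 23.5%, 24.6% and 29.7%.

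Ccnd1 and Ccnd2 lay on the same side of control as most fibroblast markers in each knockdown library. The list genes nearest to Ccnd1 in their pair of log2 fold changes, among 76 list genes whose mean reached 100 reads, were the fibroblast markers Fbn1 (-0.56 in KD-1, 0.42 in KD-2, distance 0.12) and Thy1 (-0.44 and 0.37, distance 0.24). Those nearest to Ccnd2 were Dcn (-0.64 and 0.80, distance 0.32) and Col1a1 (-0.55 and 0.79, distance 0.40), fibroblast markers as well. Only list genes were compared, and outside the fibroblast markers the lowest list gene in KD-1 was Cdk2 at -0.35. The lists thus offered Ccnd1 and Ccnd2 no other genes as low in KD-1, and the nearest genes do not tell what kind of gene these 2 are. The genes nearest to Ccnd3 were the inhibitors Cdkn1c (0.27 and 0.82, distance 0.11) and Cdkn1a (0.20 and 0.56, distance 0.17). Within a library the ratio of Ccnd1 reads to those of a fibroblast marker depended on the marker. With Fbn1 it was 2.12 in control, 1.95 with KD-1 and 2.12 with KD-2, and with Col3a1 0.376, 0.590 and 0.260. Over all 10 markers, the Ccnd1 ratio in KD-1 was above that in control for 5 and below it for 5, with log2 differences from -0.76 (Col6a3) to 1.34 (Postn), and in KD-2 it was below for 8, from -0.66 (Pdgfrb) to 0.05 (Thy1). For Ccnd2 the ratio was below that in control for 6 of the 10 in either knockdown, with a median log2 difference of -0.20 for KD-1 and -0.07 for KD-2. The part of feeder cells in the D cyclin values was not tested.

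Both E cyclins were near control with KD-1 and below it with KD-2, where Ccne2 alone passed 1.5-fold. Ccne1 (chr7:38097984-38107534, minus strand) had 10609 scaled reads in control, 10588 with KD-1 and 7581 with KD-2, with log2 fold changes of -0.00 (-0.04 to 0.04) and -0.48 (-0.53 to -0.44). Ccne2 (chr4:11191351-11204779, plus strand) had 2220, 2026 and 1323 scaled reads, and its log2 fold change was -0.13 (-0.22 to -0.04) with KD-1 and -0.75 (-0.85 to -0.65) with KD-2. Ccne2 overlaps Ints8 on the other strand, which had 5565 reads in control, 6891 with KD-1 and 4410 with KD-2. KD-2 was thus the lowest library for Ccne1, Ccne2 and Ints8.

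Ccne1 was the main E cyclin, with 82.7% of the E cyclin reads in control, 83.9% with KD-1 and 85.1% with KD-2. The read ratio of Ccne1 to Cdk2, the kinase it activates, was 1.41 in control, 1.80 with KD-1 and 1.5 with KD-2. Cdk2 was itself at -0.35 with KD-1 and -0.58 with KD-2, just under the call. Exons of Cdk2 overlap Pmel on the other strand, which had 1219 reads in control, 917 with KD-1 and 639 with KD-2. The list genes nearest to Ccne1 were Tfdp2 (-0.03 with KD-1 and -0.50 with KD-2, distance 0.03), a partner of E2F factors, and Cdc25c (-0.06 and -0.54, distance 0.08), a phosphatase that activates CDK1. Those nearest to Ccne2 were E2f8 (-0.13 and -0.71, distance 0.04), a repressor of the E2F family, and Fbxo5 (-0.11 and -0.67, distance 0.08), an inhibitor of the anaphase-promoting complex.

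The cyclins of S phase and mitosis, Ccna2 and Ccnb1, were lower in KD-2, whereas Ccnb2 was close to control in both knockdowns. Many promoters of G2 and mitosis genes are known to carry CCAAT boxes, which NF-Y binds, and a CHR element (TTTGAA), which the DREAM and MuvB complexes bind. The promoters of Ccnb1, Ccnb2 and Cdk1 are shown because Ccnb1 and Cdk1 had nearly equal fold changes while those of Ccnb2, the relative of Ccnb1, were smaller in KD-2, and that of Cdkn1b as an inhibitor that was not called in any comparison. They are RefSeq sequences (GRCm38.p6) from 120 bases before the RefSeq start to at most 15 after it, ended earlier where another GENCODE transcript starts upstream so that at most 30 transcribed bases are shown, with CCAAT or TTTGAA on either strand in capitals (ATTGG is CCAAT read from the other strand).
Ccnb1, chr13:100786541-100786606, minus strand: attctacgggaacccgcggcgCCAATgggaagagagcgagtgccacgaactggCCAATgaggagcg
Ccnb2, chr9:70421540-70421674, minus strand: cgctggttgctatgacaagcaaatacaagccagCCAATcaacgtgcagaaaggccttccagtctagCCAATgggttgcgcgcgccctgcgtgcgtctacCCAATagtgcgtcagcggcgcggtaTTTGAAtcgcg
Cdk1, chr10:69352909-69353032, minus strand: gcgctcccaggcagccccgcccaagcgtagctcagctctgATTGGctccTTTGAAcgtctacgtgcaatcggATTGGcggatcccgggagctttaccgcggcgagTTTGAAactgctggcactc
Cdkn1b, chr6:134920281-134920415, plus strand: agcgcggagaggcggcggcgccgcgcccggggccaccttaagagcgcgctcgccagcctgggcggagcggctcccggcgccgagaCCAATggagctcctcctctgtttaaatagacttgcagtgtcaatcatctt

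CCAAT stands 2 times in the Ccnb1 window of 135 bases (from -99 and -67), 3 times in that of Ccnb2 (from -87, -54 and -21), 2 times in that of Cdk1 (from -80 and -48, reverse strand) and once in that of Cdkn1b (from -35), counted from the RefSeq start. One of the 2 windows of Ccnd3 holds it (from -108), and those of Ccne1 and Cdkn2a do not. Of 32851 RefSeq windows of the same 135 bases, 22.8% hold at least 1 CCAAT, 5.06% at least 2 and 0.886% at least 3. TTTGAA, found in 7.87% of the windows, stands in the window of Ccnb2 (from 5) and 2 times in that of Cdk1 (from -71 and -15). The window of Ccnb1 does not hold these 6 letters, and neither do those of Ccne1, Ccnd3, Cdkn1b and Cdkn2a. Only 6 of the 10 genes had a window in the table used, so Ccnd1, Ccnd2, Ccne2 and Ccna2 were not searched. A match of letters is a description of the sequence and not a measured binding site.

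Ccnb1 (chr13:100778650-100786570, minus strand) had the most reads of the 10 genes, with 64131 scaled reads in control, 64974 with KD-1 and 41739 with KD-2. KD-1 and control were nearly equal, and KD-2 stood apart below both. The log2 fold change was 0.02 (0.00 to 0.03) with KD-1 and -0.62 (-0.64 to -0.60) with KD-2. The call in KD-2 was close to the threshold and was lost with other scalings, at -0.58 with TMM, -0.58 with DESeq2's size factors and -0.46 with library totals, and in KD-1 the sign itself was not fixed, with -0.05 under DESeq2's size factors.

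Within each library Ccnb1 kept nearly the same proportion to Cdk1, the kinase that it activates. The read ratio of Ccnb1 to Cdk1 was 3.19 in control (interval 3.14 to 3.24), 3.15 with KD-1 (3.11 to 3.20) and 3.08 with KD-2 (3.02 to 3.14). Cdk1 was at 0.04 with KD-1 and -0.57 with KD-2, the list gene nearest to Ccnb1 (distance 0.05), followed by the ES cell marker Zfp42 (0.04 and -0.70, distance 0.08). The ratio of Ccnb1 to Mki67, a general marker of proliferating cells, was 1.87, 1.79 and 1.77. Against the 10 ES cell markers, the Ccnb1 ratio in KD-2 was below that in control for 9, with a median log2 difference of -0.37, from -1.79 (Utf1) to 0.08 (Zfp42), and it was nearly level with Tdgf1 (1.22 in control, 1.21 with KD-2). In KD-1 it was below for 8 of the 10, with a median of -0.16.

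Ccnb2 (chr9:70407692-70421547, minus strand) had 7158 scaled reads in control, 7684 with KD-1 and 6392 with KD-2, with log2 fold changes of 0.10 (0.06 to 0.15) and -0.16 (-0.21 to -0.11), neither of which passed 1.5-fold. The interval of its share of the B cyclin reads ran from 9.81% to 10.3% in control, from 10.4% to 10.8% with KD-1 and from 13.0% to 13.6% with KD-2, and the read ratio of Ccnb1 to Ccnb2 went with it, at 8.96, 8.46 and 6.53. The intervals of KD-2 do not touch those of the other libraries, but they cover counting error only. Wee1 (0.08 and -0.20, distance 0.04), which encodes a kinase that inhibits CDK1, and Pou5f1 (0.12 and -0.21, distance 0.05) were the list genes nearest to Ccnb2.

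Ccna2 (chr3:36564865-36572150, minus strand) had 22806 scaled reads in control, 20438 with KD-1 and 15048 with KD-2. Both knockdown libraries were below control, at -0.16 (-0.19 to -0.13) with KD-1 and -0.60 (-0.63 to -0.57) with KD-2. The call in KD-2 was lost with other scalings, at -0.56 with TMM, -0.56 with DESeq2's size factors and -0.44 with library totals. Exosc9, which overlaps exons of Ccna2 on the other strand, had 3982 reads in control, 4471 with KD-1 and 3492 with KD-2. In control, KD-1 and KD-2 the read ratio of Ccna2 to Cdk2 was 3.02, 3.47 and 2.98. Against the ES cell markers, its ratio was below that in control for 9 of the 10 with KD-1 and for 8 of the 10 with KD-2, with median log2 differences of -0.34 and -0.35, and Zfp42 gave 0.10 in KD-2. Nearest to Ccna2 were Rbl1 (-0.16 and -0.61, distance 0.01), which encodes the retinoblastoma relative p107, and Cks2 (-0.14 and -0.62, distance 0.02), a small subunit of CDK complexes.

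The inhibitors Cdkn1b and Cdkn2a differed from each other. Cdkn1b (chr6:134920401-134925513, plus strand) had 1150 scaled reads in control, 1098 with KD-1 and 1194 with KD-2. Its log2 fold changes of -0.07 (-0.19 to 0.05) and 0.05 (-0.07 to 0.18) were within counting error of 0 in both knockdowns, although with library totals KD-2 was at 0.21. The list genes nearest to it were Cdkn2d, an inhibitor of CDK4 and CDK6, at a distance of 0.11, and E2f1, the first known E2F factor, at 0.12.

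Cdkn2a (chr4:89274471-89294653, minus strand) was the gene with the highest fold change of the 10. It had 1783 scaled reads in control, 1584 with KD-1 and 3781 with KD-2, a log2 fold change of -0.17 (-0.27 to -0.07) with KD-1 and 1.08 (1.00 to 1.17) with KD-2. KD-2 was thus 2.12 times control, and KD-1 was 1.26 below KD-2 on the log2 scale. It was the one gene of the 10 that passed 2-fold against control in either knockdown. Transcripts of the locus begin at 2 separate RefSeq starts, 89282192 and 89294619 on chromosome 4, for p16INK4a and p19ARF, and the reads were counted for the gene as a whole, so the values do not say which product they belong to.

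Cdkn2b, the neighbour of Cdkn2a on chromosome 4 (chr4:89306299-89311039, minus strand), encodes p15INK4b and had the pair of fold changes nearest to Cdkn2a, at -0.29 with KD-1 and 0.90 with KD-2 (distance 0.22). It had 1229 reads in control, 1177 with KD-1 and 2473 with KD-2. The read ratio of Cdkn2a to Cdkn2b was 1.34 in control (interval 1.25 to 1.45), 1.46 with KD-1 (1.35 to 1.57) and 1.52 with KD-2 (1.45 to 1.60). The next nearest was the fibroblast marker Col1a1 (-0.55 and 0.79, distance 0.48), and over all 10 fibroblast markers the Cdkn2a read ratio was above that in control for 9 with KD-1 and for 10 with KD-2, with median log2 differences of 0.56 and 0.34 and the lowest in KD-2 at 0.00 (Pdgfrb). The part of feeder cells in the Cdkn2a values was not tested.

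**Figure D4:**
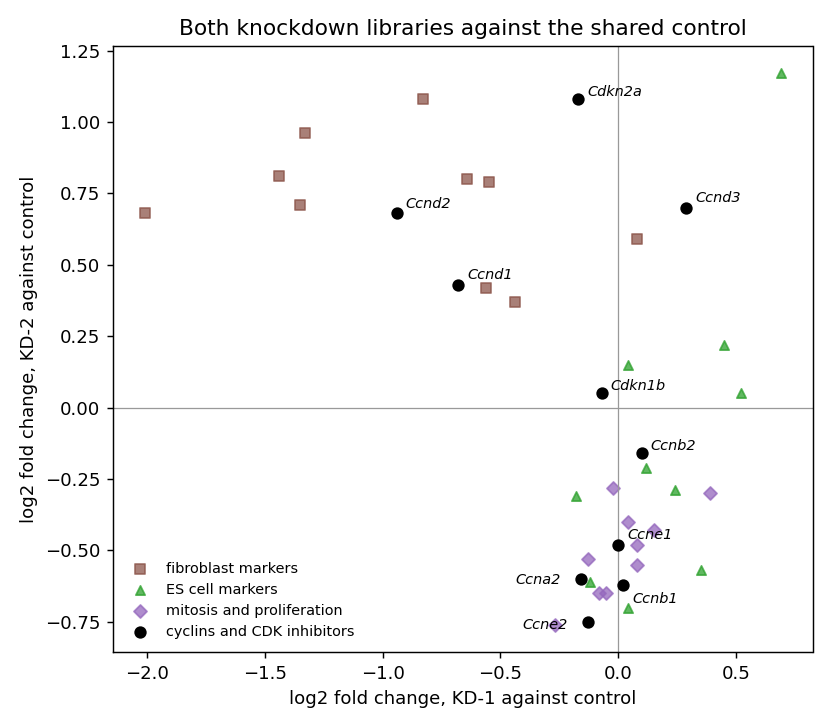
Log2 fold change in NUP153 KD-2 (vertical axis) against that in NUP153 KD-1 (horizontal axis) for the cyclins and CDK inhibitors (black circles), fibroblast markers (brown squares), ES cell markers (green triangles) and genes of mitosis and proliferation (purple diamonds). Both axes share the 1 control library, so a point's position on one axis is not independent of the other: Ccnd1 and Ccnd2 lie among the fibroblast markers at the upper left, and Ccne1, Ccne2, Ccna2 and Ccnb1 lie among the mitosis genes at the lower centre.

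Of 58 further genes of the cell cycle, in 7 lists chosen by function with earlier results of these data known, none was called in either direction in KD-1. There 14.2% of all genes were called, and the median of the 58 was -0.04. In KD-2, 3 were called higher and 9 lower, so 12 of the 58 were called, or 20.7%, beside 27.3% of all genes (17.1% higher and 10.2% lower). Their median was -0.34, against -0.02 over all genes. Scaling moved these counts to 5 higher and 6 lower with TMM or DESeq2's size factors and to 6 higher and 1 lower with library totals, where the median was -0.18 and that of all genes 0.14.

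In the list of mitosis and proliferation genes, all 10 were below 0 in KD-2 and 3 were called lower, beside 10.2% of all genes: Top2a, the topoisomerase that untangles chromosomes (-0.76), Bub1, a kinase of the spindle checkpoint (-0.65), and Kif11, a spindle motor (-0.65). The median of the list was -0.50 in KD-2 and 0.01 in KD-1, where Cenpf, a kinetochore protein, was the highest at 0.39 and Top2a the lowest at -0.27. In KD-2 Aurkb was the highest at -0.28, and with library totals Top2a alone was called. Mki67 was at 0.08 with KD-1 and -0.55 with KD-2. In summed scaled reads, KD-2 against control was -0.58 on the log2 scale for this list, -0.43 for the ES cell markers and 0.81 for the fibroblast markers. The part of cell types in these values was not tested.

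None of the 5 cyclin-dependent kinases was called in either knockdown, and their median was -0.02 with KD-1 and -0.53 with KD-2. They ran from Cdk2 at -0.35 to Cdk6 at 0.17 in KD-1, and from Cdk2 at -0.58 to Cdk6 at 0.27 in KD-2. Among 13 genes of the RB and E2F families, Rbl1 (-0.61), E2f7 (-0.71) and E2f8 (-0.71) were called lower in KD-2, beside 10.2% of all genes. Rbl2, which encodes the relative p130, was the highest there at 0.43. In KD-1 the same list ran from Rbl2 at -0.31 to E2f2 at 0.44. The call of Rbl1 in KD-2 was lost with TMM and DESeq2's size factors (-0.57), and with library totals E2f7 and E2f8 were at -0.55 as well. With library totals 0 of the 13 were thus called lower and 1 was called higher.

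Among 10 genes of CDK phosphorylation and G2/M transcription, Cdc25b, a phosphatase that activates CDK1, was called lower in KD-2 (-0.61) and was at -0.57 with TMM. Plk1, a mitotic kinase, was the highest of the list in KD-2 at 0.02, and in KD-1 Foxm1, a factor of mitotic genes, was the highest at 0.51 and Cdc25a the lowest at -0.20. Of 8 genes of cyclin and inhibitor turnover, Cks2 (-0.62, and -0.58 with TMM) and Fbxo5 (-0.67, and -0.51 with library totals) were called lower in KD-2, and Btrc was the highest at 0.21. In KD-1 that list ran from Skp2 at -0.15, the receptor that targets p27Kip1 for degradation, to Fzr1 at 0.44, an activator of the anaphase-promoting complex.

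Over the 5 other CDK inhibitors the median was 0.58 with KD-2, where 17.1% of all genes were called higher. Cdkn2b (0.90) and Cdkn1c, which encodes p57Kip2 (0.82), were called higher, while Cdkn2c (0.58) and Cdkn1a, a target of p53 (0.56), were just under 1.5-fold and passed it with TMM, DESeq2's size factors and library totals. Cdkn2d was at -0.01 in KD-2 and -0.16 in KD-1. In KD-1 the list ran from -0.29 for Cdkn2b to 0.27 for Cdkn1c. The fibroblast markers had a median of 0.75 in KD-2 and -0.73 in KD-1, and their part in the inhibitor values was not tested. Among 7 other cyclins, Ccnb3, a cyclin of meiosis, was called higher in KD-2 (1.22) on 30, 31 and 76 reads in control, KD-1 and KD-2, and Ccna1 was the lowest at -0.58. In KD-1 those cyclins ran from Ccng2 at -0.32 to Ccnf at 0.15.

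Both NUP153 KD libraries were also compared as a group (n = 2) with the control (n = 1), where the only spread within a group is the difference between the knockdown libraries. By edgeR's quasi-likelihood test 0 of 16670 genes (0%) had an adjusted p under 0.05, 190 genes had an unadjusted p under 0.05, and the Wald test of DESeq2 called 2 genes. None of the 10 cyclins and inhibitors had an unadjusted p under 0.05 by either test. The adjusted p of edgeR's quasi-likelihood test was 1 for all 10. The fitted log2 fold changes ran from -0.40 for Ccne2 to 0.62 for Cdkn2a, with Ccnd3 at 0.53, Ccna2 at -0.35, Ccnb1 at -0.26 and Ccne1 at -0.21. Those of Ccnd1 (0.01), Ccnd2 (0.12), Ccnb2 (-0.01) and Cdkn1b (0.01) were near 0, and for Ccnd1 and Ccnd2 KD-1 and KD-2 lay on opposite sides of control. Nup153 was at -1.18 with an adjusted p of 1 by the same test of edgeR, so a gene that was lower in both knockdowns did not pass after adjustment either.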

How the data were processed

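RNA-Seq libraries were made from total RNA depleted of ribosomal RNA. Per the submitters' processing notes, the authors used Trim Galore 0.4.1, TopHat2 2.1.1 and HTSeq on mm10, and for each of the 3 libraries they deposited the raw, unscaled counts of reads on genes. The paper's methods name another counter, featureCounts, and the strand counted was not given in the sources used here. The 5 summary lines that name no gene were left out of all totals, among them reads on no feature, which made up 21.8% in control, 24.1% with KD-1 and 21.5% with KD-2 of all lines.

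Counts were scaled by upper quartiles, and log2 fold changes were taken with a pseudocount of 0.5. The dispersion that the study fixed was not used, so 1 library was not tested against 1, and a gene was called by fold alone. A ratio of reads has an exact conditional binomial interval (Clopper-Pearson, 95%), which covers counting error only. The 2 knockdowns as a group were compared with control using edgeR 4.0.16 (TMM, quasi-likelihood, Benjamini-Hochberg, 1 residual degree of freedom) or DESeq2 1.42.0 in R 4.3.3. Their p-values rest on the difference between the 2 knockdown libraries, with each gene's spread drawn toward that of other genes, and on no replicate of an shRNA or of control. In simulated libraries for this comparison, over 16670 genes, edgeR called 182 of 200 genes changed 4-fold with 8 false calls, and DESeq2 164 of 200 with 5. The simulation drew both knockdown libraries as replicates with the same fixed dispersion for every gene. The real ones come from different shRNAs, so these counts do not give the power of the real comparison, nor that for smaller changes.

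RPKM used the exons of GENCODE vM21 (GRCm38, the build of mm10), matched by symbol. Named genes were the 10 members, Nup153, each fixed list's called genes with its highest and lowest, the markers, and for each member the 2 list genes with the nearest pair of fold changes (Euclidean distance). Partners in a read ratio and genes overlapping a named gene on the other strand were named as well. The members and lists were chosen with earlier results of these data known. Alternatives were other scalings, read minimums, a pseudocount of 5, a fold above 2, other tests, and leaving out each knockdown library.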

Additional observations from a re-analysis of the deposited data

Results flagged for a closer look

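For 6 of the 10 genes the KD-1 and KD-2 libraries lay on opposite sides of the control that they share. The share of all genes that did so was not counted, so this number is not read as a trait of the 10 genes. For Ccnb1 (0.02 and -0.62 in KD-1 and KD-2) the interval in KD-1 began at 0.00, and with DESeq2's size factors KD-1 was at -0.05, on the same side as KD-2. For Ccnb2 (0.10 and -0.16) neither library passed 1.5-fold, and for Cdkn1b (-0.07 and 0.05) both intervals held 0. In the other 3, both counting intervals lay off 0 and at least 1 library passed 1.5-fold against control. KD-1 against KD-2 gave -1.10 on the log2 scale for Ccnd1, -1.61 for Ccnd2 and -1.26 for Cdkn2a. Of these, KD-1 passed 1.5-fold below control for Ccnd1 and Ccnd2, and KD-2 passed it above control for Ccnd2 and Cdkn2a. Each condition has 1 library, so the difference between the knockdowns was not tested. Over the 10 fibroblast markers the median of KD-1 against KD-2 was -1.68 and 9 were called lower in KD-1, and their part in these values was not tested.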

How the results depend on the processing

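Of 210 values of the 10 genes under other scalings, read minimums, pseudocount and fold, 189 stayed on their side of the threshold, 21 lost their call and 0 of the called ones changed sign. The read minimums could not move these values, since all 10 genes have a mean above 100 reads, so 189 of 210 overstates how firm the calls were. All lost calls came with another scaling or with a fold above 2. Besides Ccna2 and Ccnb1 in KD-2, Ccne2 and Ccnb1 lost their call in KD-1 against KD-2 (Ccne2 0.56, 0.51 and 0.45, and Ccnb1 0.58, 0.54 and 0.47, with TMM, DESeq2's size factors and library totals), which left 3 of the 10 called there. With a fold above 2, the number called was 0 in KD-1, 1 in KD-2 (Cdkn2a) and 3 in KD-1 against KD-2. Over all genes, the calls in KD-1, KD-2 and KD-1 against KD-2 numbered 5298, 7461 and 8080 with no minimum of reads, 1028, 2852 and 3318 with a mean of at least 100 reads, and 770, 1212 and 1839 with a fold above 2. By reads per kilobase in place of reads, the shares in control, KD-1 and KD-2 were 74.9%, 72.2% and 71.4% for Ccnd1, 86.3%, 87.3% and 88.3% for Ccne1, and 76.5%, 75.4% and 70.3% for Ccnb1.

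For both knockdowns as a group, edgeR's quasi-likelihood test called 4 genes with upper-quartile scaling and 4 with no minimum of reads (Ipw, Lars2, Mir6236 and Taf7l in each), 0 with DESeq2's size factors, and the Wald test called 2 (Ipw and Taf7l). These genes are named after their values were seen. Without KD-1 the fold changes of the 10 genes ran from -0.70 to 1.12 and without KD-2 from -0.95 to 0.27, with no test, since no residual degree of freedom is left. Ccnd1 was at 0.47 without KD-1 and -0.69 without KD-2, Ccnd2 at 0.72 and -0.95, and Cdkn2a at 1.12 and -0.19, so the library left out decided their direction. No paired analysis was possible because each condition has 1 library.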
